A study of Rattus norvegicus with 30 samples.

Results

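The genes described here are 9 markers of fetal liver, liver progenitor cells, bile duct cells and preneoplastic liver foci: Afp, Gpc3, Gstp1, Ggt1, Spp1, Krt19, Sox9, Cd24 and Epcam. They were measured by their probe sets on a rat whole-genome array, taking only probe sets annotated to 1 of these genes alone. Of the 9 genes, 8 had such a probe set, and no probe set used here was annotated to Sox9 alone, the duct and progenitor transcription factor. Gpc3 had 2 probe sets and the other genes 1 each, which makes 9 of the 31099 probe sets. Where a gene had several, the one with the highest mean over the 30 arrays stood for it.

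The study dosed primary hepatocytes of male Sprague Dawley rats with methapyrilene HCl, an antihistamine that was withdrawn after it caused liver tumours in rats. The cells were bought frozen, thawed, plated on collagen under Matrigel and dosed on day 3 of culture. The 6 groups were 100 uM methapyrilene for 24 h, 100 uM for 48 h, 3 uM for 24 h, 3 uM for 48 h, and DMSO vehicle, labelled as 1%, for 24 h and for 48 h. Each group had 5 wells, 1 array per well, so n = 5 in every group below. The labels call the wells independent cultures and name no animals, and each p-value below therefore reflects well-to-well spread alone. All groups share the cell source, the medium and the Matrigel layer, and no undosed tissue or tumour was used here. The bulk RNA of a well cannot tell fewer cells of a type apart from less RNA per cell.

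In the fetal rat liver, hepatoblasts make alpha-fetoprotein and give rise to both hepatocytes and bile duct cells. After birth most of these fetal genes fall silent in hepatocytes, while keratin 19, Sox9, Epcam, osteopontin and Cd24 stay with the duct cells and with the oval cells that expand after injury. In rat liver carcinogenesis, the placental form of glutathione S-transferase and gamma-glutamyl transferase mark the early foci of altered hepatocytes, and Afp and glypican 3 mark many tumours.

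Signals are MAS5 values on a linear scale, and array medians ranged from 362 to 471. A probe set was called near background where it exceeded its own array's median on fewer than 5 of the 30 arrays. By that rule Gstp1, Epcam, Afp and Ggt1 were measured on all 30 arrays. Krt19 exceeded the median on 5 arrays, just enough to be kept, and Cd24, Gpc3 and Spp1 on 0 arrays. So 5 genes entered the test, and the 3 below the filter are given by their levels and by fits without the filter. Levels of different probe sets are not comparable as amounts of RNA.

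Hepatocyte markers were bright, with Alb between 57477 and 113035 on all arrays. Of the markers of other cells with a probe set, 1 of 6 endothelial, 6 of 10 stellate cell and fibroblast, 6 of 9 Kupffer cell and leukocyte and 5 of 8 bile duct cell markers passed the filter. The first 3 replicates of 3 uM at 24 h stood apart. Their ratio of the 3' to the 5' beta-actin control probe set, which rises when RNA is shortened, lay between 3.93 and 5.30, against 2.34 to 3.43 on the other 27 arrays. The 3 uM results of the 5 tested genes at 24 h are given with and without these 3 arrays.

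**Figure D1:**
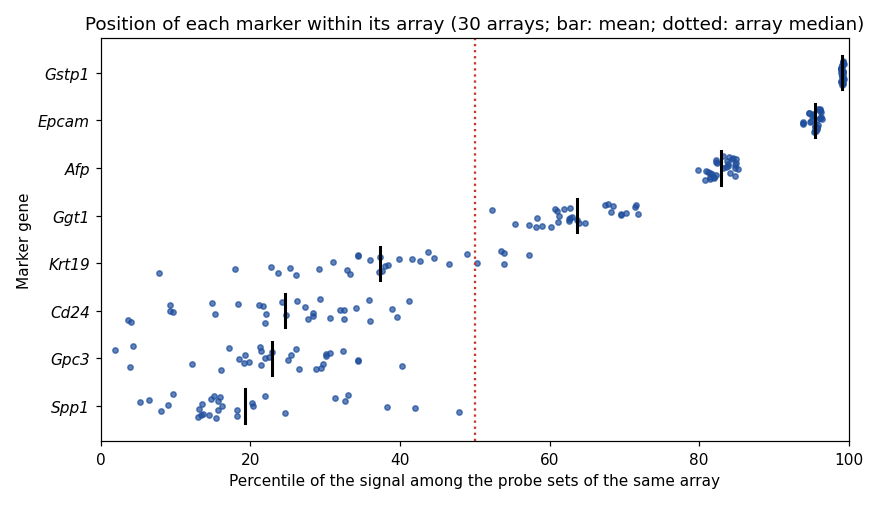
The horizontal axis is the percentile of a marker's signal among the probe sets of the same array, with 1 point for each of the 30 arrays, a black bar at the mean and a dotted line at the array median. Gstp1 sits at a mean percentile of 99.1, Epcam at 95.5, Afp at 83.0 and Ggt1 at 63.6, while all points of Cd24, Gpc3 and Spp1 lie left of the median.

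At 100 uM methapyrilene, 1 of the 5 tested genes was called at 24 h, Epcam, which was 11.1% higher, and 3 were called at 48 h, Ggt1, Krt19 and Epcam, all lower. Krt19 passed the filter mainly through its DMSO wells at 48 h, and in a fit without the filter its change there was -1.49 (adjusted p = 0.00863). Afp and Gstp1 were called at neither time. A gene was called at a Benjamini-Hochberg adjusted p under 0.05 over the 10222 genes of the limma fit. Over all genes 2029 were called higher and 1618 lower at 24 h, and 1932 higher and 1483 lower at 48 h. In either direction 35.7% of genes were called at 24 h and 33.4% at 48 h, and the lower calls at 48 h made up 14.5% of genes. At these shares, calls among 5 genes say little about the markers as a group. At 3 uM, 0 of the 5 were called at 24 h, where 4.22% of all genes were called, and 0 at 48 h, where 0.0391% were. At an unadjusted p under 0.05, 1 of the 5 passed at 3 uM and 24 h, Epcam, where 22.1% of all genes did, and 0 at 48 h, where 5.11% did. With replicates 4 and 5 alone in the 3 uM group at 24 h, 0.0391% of all genes were called, 0 of the 5 were called, and the Epcam change was -0.0051 (adjusted p = 0.989).

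Afp encodes alpha-fetoprotein, the main serum protein of the fetus, and its probe set 1367758_at was measured in every well. At 24 h it read 2394, 2932, 2335, 2653 and 2334 in DMSO. At 3 uM the wells read 2283, 2234, 2108, 2973 and 2484. At 100 uM they read 2078, 2182, 2292, 2246 and 2314. All 5 wells at 100 uM thus lay below all 5 DMSO wells, by a narrow margin between 2314 and 2334. Among all tested genes 11.9% were lower without overlap in this comparison. Afp was not called (log2 fold change -0.18 ± 0.083, SE, adjusted p = 0.0882).

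At 48 h Afp signals overlapped between the doses. They lay between 2504 and 2946 in DMSO, between 2593 and 2863 at 3 uM and between 2274 and 2916 at 100 uM. The log2 fold change at 100 uM was -0.14 ± 0.083 (adjusted p = 0.199), and its 95% interval of -0.31 to 0.026 left out any rise above 1.02-fold. At 3 uM the changes were -0.071 ± 0.083 at 24 h and -0.018 ± 0.083 at 48 h, with adjusted p of 0.659 and 1.00, and with replicates 4 and 5 alone the first was 0.11 (adjusted p = 0.786). Against 3 uM at 24 h, Afp at 100 uM was at -0.29 (adjusted p = 0.0287) with those 2 replicates alone, which is a call, and was not called with all 5. In DMSO the change at 48 h against 24 h was 0.13 ± 0.083 (adjusted p = 0.479). With the beta-actin ratio as a covariate, the 100 uM change at 24 h was -0.22 (adjusted p = 0.0206), which is a call, while Epcam was then not called.

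Of 12 tested genes that neighbour or regulate Afp, 0 rose and 5 fell at 100 uM and 24 h, with a median log2 fold change of -0.22 against 0.043 over all genes. At 48 h 0 rose and 5 fell (median -0.13 against 0.049). Zbtb20, a repressor of Afp in mouse liver, averaged 3721 at 100 uM and 5897 in DMSO at 24 h, a log2 fold change of -0.65 ± 0.11 (adjusted p = 2.47e-05). At 48 h its change was -0.44 ± 0.11. Zhx2, another repressor known from mice, fell at 24 h (-0.40 ± 0.13, adjusted p = 0.0170) and was at 0.050 ± 0.13 at 48 h, where it was not called. Among the activators, Nr5a2 fell by 0.58 and Hnf4a by 0.37 at 24 h, and Foxa1 fell by 1.14 and Cebpa by 0.58 at 48 h. Alb, the neighbour of Afp in the albumin cluster, was at 0.055 ± 0.13 at 24 h and -0.15 ± 0.13 at 48 h and was not called. Afm, the afamin gene of the same cluster, fell at 48 h (-0.32 ± 0.070, adjusted p = 0.000399).

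Gstp1 encodes the pi-class glutathione S-transferase, whose protein marks foci in rat liver. Its probe set 1388122_at was among the brightest on every array, at a percentile of 98.9 or more. At 24 h its mean signal was 37604 ± 2726 (SD) in DMSO, 35260 ± 4138 at 3 uM and 38425 ± 4667 at 100 uM. At 48 h it was 40435 ± 2286 in DMSO, 38476 ± 4051 at 3 uM and 38792 ± 1803 at 100 uM. The ranges of neighbouring groups overlapped throughout the order of the 6 means.

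The log2 fold change of Gstp1 at 100 uM was 0.026 ± 0.079 at 24 h (adjusted p = 0.842) and -0.059 ± 0.079 at 48 h (adjusted p = 0.618). The 95% intervals corresponded to 0.911- to 1.14-fold and 0.859- to 1.07-fold. At 3 uM it was -0.098 ± 0.079 at 24 h (adjusted p = 0.492). In that group the 3 arrays with the high beta-actin ratio read 33945, 31513 and 31812, below the 41039 and 37991 of replicates 4 and 5, and with these 2 alone the change was 0.073 (adjusted p = 0.876). How far a signal this bright still follows the amount of RNA was not tested.

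Of the 10 tested genes listed as factors of the Gstp1 enhancer, 4 rose and 1 fell at 100 uM and 24 h, and 4 rose and 2 fell at 48 h, with medians of 0.022 and 0.18. The list also held Keap1, which does not act at the enhancer itself, and the counts include it. Fosl1, an AP-1 subunit, averaged 1643 at 100 uM and 554 in DMSO at 24 h (1.59 ± 0.15, adjusted p = 2.41e-10), and its change at 48 h was 1.00 ± 0.15. The small Maf factors Maff (0.73 ± 0.088) and Mafk (0.45 ± 0.079) rose at 24 h, as did Nfe2l2, the oxidative stress factor NRF2 (0.26 ± 0.062). Jun fell by 0.46 at 24 h and by 0.45 at 48 h.

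Of 8 tested enzymes and transporters known from rat foci, 1 rose and 1 fell at 24 h, and 0 rose and 3 fell at 48 h, with medians of 0.015 and -0.16. Akr1b8, an aldo-keto reductase, rose at 24 h (0.46 ± 0.15, adjusted p = 0.0141). Gsta3, an alpha-class glutathione S-transferase, fell by 0.44 at 24 h and by 0.61 at 48 h. At 48 h Abcc3, an export pump, fell by 0.35 and Akr7a3, an aflatoxin aldehyde reductase, by 0.18.

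Ggt1 was higher at 48 h than at 24 h at every dose, and lower at 100 uM than in DMSO at 48 h. It encodes gamma-glutamyl transferase, which splits extracellular glutathione at the cell surface and is the histochemical marker of rat liver foci. At 24 h probe set 1368374_a_at read 666, 439, 595, 692 and 709 in DMSO. The readings were 717, 714, 570, 682 and 646 at 3 uM. At 100 uM they were 573, 621, 567, 570 and 516. The groups overlapped at 24 h.

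At 48 h Ggt1 read 1132, 976, 914, 1147 and 934 in DMSO. The 3 uM wells read 1006, 983, 1160, 1063 and 1022. The 100 uM wells read 799, 755, 686, 726 and 783. Every 100 uM well lay below every DMSO well and every 3 uM well, and all 3 groups lay above their own 24 h wells without overlap. Over all genes 12.1% were lower without overlap at 100 uM than in DMSO at 48 h and 10.2% lower than at 3 uM. In the comparison of 48 h with 24 h, 4.95% of genes were higher without overlap at 100 uM, 2.8% at 3 uM and 3.38% in DMSO.

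In DMSO, Ggt1 averaged 1021 ± 111 at 48 h and 620 ± 110 at 24 h, or 0.73 ± 0.12 on the log2 scale (adjusted p = 8.70e-05). Of the 5 tested genes 2 were called in this comparison, Ggt1 and Epcam, both higher, where 4.48% of all genes were called and 2.57% called higher. At 48 h Ggt1 averaged 750 ± 45.5 at 100 uM and 1021 ± 111 in DMSO, which is -0.44 ± 0.12 on the log2 scale (adjusted p = 0.00349). At 24 h the change was -0.10 ± 0.12 (adjusted p = 0.540). The difference between the 2 times was -0.34 ± 0.17 with an adjusted p of 0.446, so a change of the effect with time was not called. Against 3 uM the change at 100 uM was -0.48 ± 0.12 at 48 h (adjusted p = 0.00186) and -0.22 ± 0.12 at 24 h (adjusted p = 0.138), and the 24 h change was -0.22 (adjusted p = 0.314) with replicates 4 and 5 of 3 uM alone. At 3 uM and 24 h Ggt1 was at 0.12 (adjusted p = 0.879) against DMSO with those 2 replicates. In this comparison of the doses 28.8% of all genes were called at 48 h and 38.8% at 24 h, and of the 5 markers 2 and 1. The call at 48 h against DMSO held under all 10 alternative settings and on leaving out each of the 10 arrays.

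Of 8 tested genes of glutathione synthesis and breakdown, 2 rose and 4 fell at 100 uM at each time, with medians of -0.17 at 24 h and -0.22 at 48 h. Oplah, which opens 5-oxoproline in the same cycle, averaged 892 at 100 uM and 2044 in DMSO at 48 h (-1.20 ± 0.15, adjusted p = 5.18e-08). Gss, glutathione synthetase, and Ggct, which cleaves gamma-glutamyl amino acids, fell by 0.40 and 0.28 at 48 h. Gclm, the regulatory subunit of the first synthetic enzyme, rose at both times (0.23 ± 0.052 at 24 h), and Ggt7 rose at 48 h (0.69 ± 0.22). Ggt5, a related transferase, lay below the filter.

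**Figure D2:**
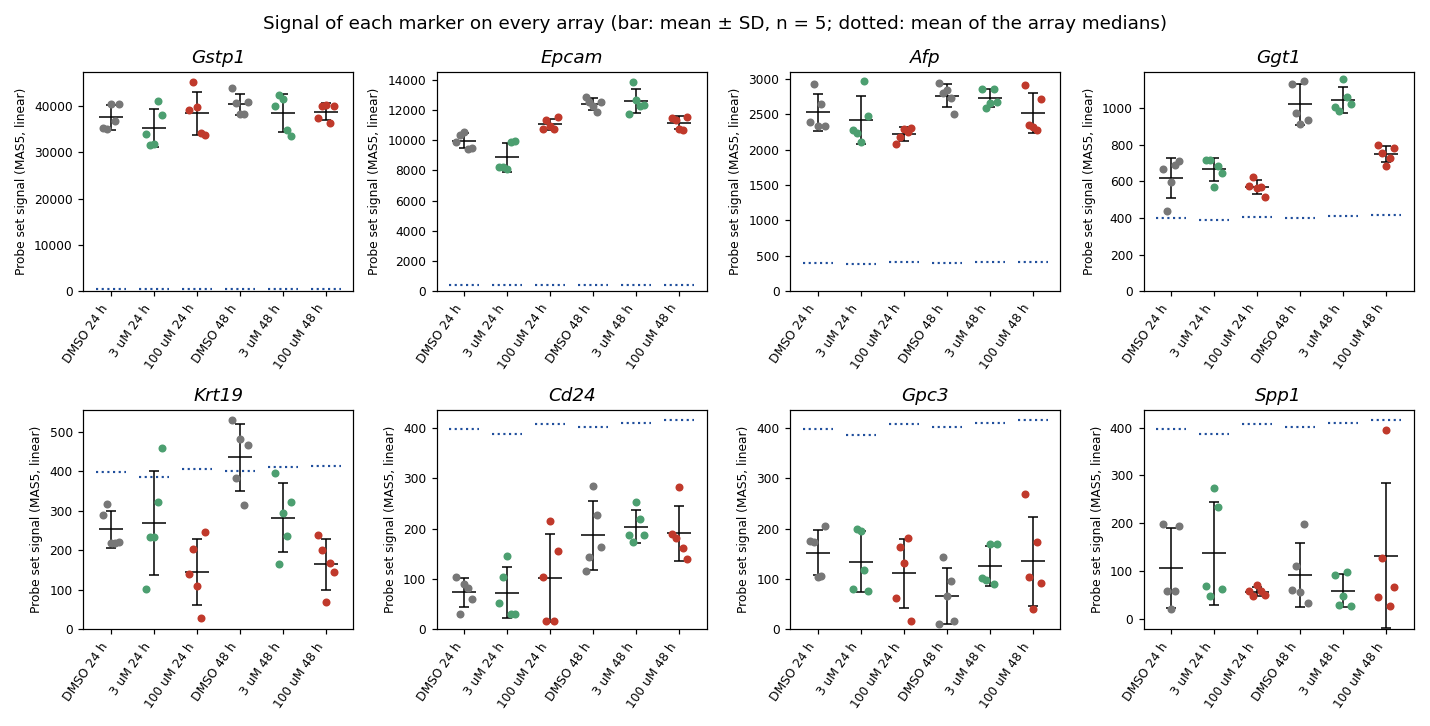
Each panel plots the linear MAS5 signal of 1 gene in each of the 6 groups, with 1 point per well, the mean with its SD (n = 5), and a dotted line at the mean of the group's array medians. Ggt1 lies higher at 48 h than at 24 h in every dose group and lower at 100 uM than in DMSO at 48 h, while Gstp1 and Afp differ little between groups and Cd24, Gpc3 and Spp1 stay below the array medians.

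Epcam encodes an adhesion molecule of epithelia that in adult liver belongs to bile duct and progenitor cells, and its probe set 1388199_at was bright in all wells. Every Epcam value rests on this 1 probe set, whose gene is taken from the platform's annotation, and its probe sequences were not checked here. At 24 h it read 9912, 10328, 10576.5, 9447 and 9495 in DMSO. The wells at 3 uM read 8194, 8223, 8106, 9880 and 9934. Those at 100 uM read 10714.5, 11328, 10912, 10766 and 11520. All 100 uM wells lay above all other wells at 24 h, and over all genes 14.5% were higher without overlap than in DMSO and 11.1% higher than at 3 uM.

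At 48 h the DMSO wells read 12848, 12512.5, 12294, 11841 and 12546. The 3 uM wells read 11765.5, 13855, 12675, 12296 and 12352. The 100 uM wells read 11460, 11354, 10733, 10653 and 11549.5. All 100 uM wells lay below all other wells at 48 h, and over all genes 12.1% were lower without overlap than in DMSO and 10.2% lower than at 3 uM. Its spread within groups, 0.085 on the log2 scale, was in the lowest 5.85% of tested genes.

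The changes at 100 uM were small and opposite in sign. The log2 fold change was 0.15 ± 0.057 at 24 h (adjusted p = 0.0375) and -0.15 ± 0.057 at 48 h (adjusted p = 0.0356), so Epcam was 11.1% higher at 24 h and fell by 10.2% at 48 h. The difference between the times was -0.31 ± 0.081 (adjusted p = 0.0420), and 1.65% of all genes were called there. Of the 5 tested markers this was the 1 called. The call at 24 h held under 8 of 10 settings and without 4 of 10 arrays, with adjusted p up to 0.311 by setting and 0.0942 by array. The call at 48 h held under 8 of 10 settings and without 4 of 10 arrays, with adjusted p up to 0.0883. The difference held under 5 of 10 settings and without 2 of 20 arrays, with adjusted p up to 0.316. The sign was the same in all of these fits.

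In DMSO Epcam averaged 12409 ± 373 at 48 h and 9952 ± 499 at 24 h (0.32 ± 0.057, adjusted p = 0.000388), called under all 10 settings and without each of the 10 arrays. At 100 uM it averaged 11150 ± 424 at 48 h and 11048 ± 357 at 24 h, and the ranges overlapped. Against 3 uM, Epcam at 100 uM was higher at 24 h (0.32 ± 0.057, adjusted p = 2.63e-05) and lower at 48 h (-0.17 ± 0.057, adjusted p = 0.0208). With replicates 4 and 5 alone in the 3 uM group at 24 h, the first of these was 0.16 (adjusted p = 0.0465). Against DMSO, 3 uM at 24 h was at -0.17 ± 0.057 (adjusted p = 0.0738), and at -0.0051 (adjusted p = 0.989) with replicates 4 and 5 alone.

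**Figure D3:**
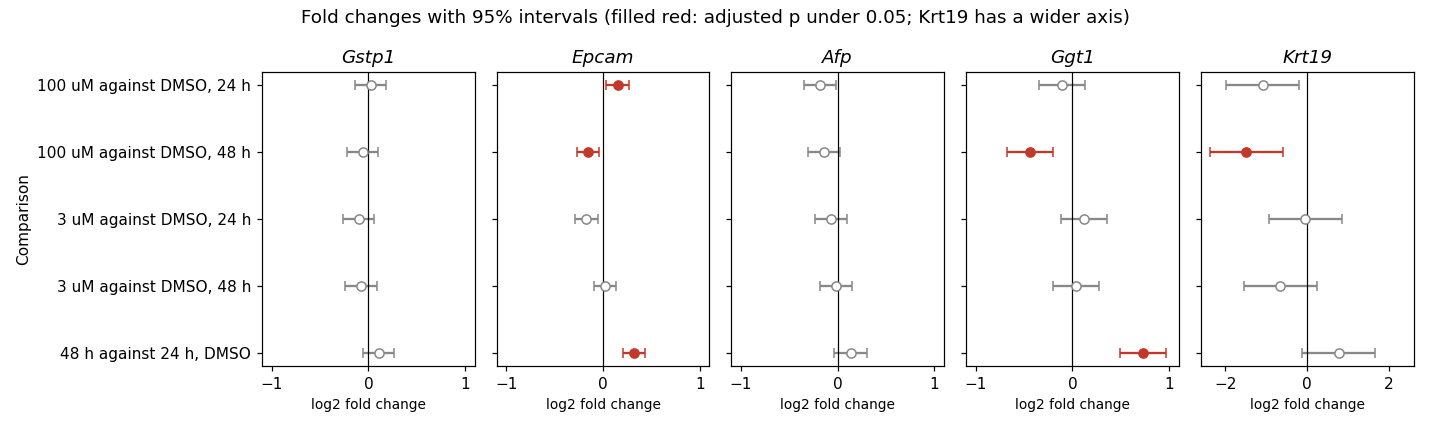
Points are log2 fold changes and lines their 95% intervals for the 5 genes past the filter in 5 comparisons, with filled red points where the adjusted p is under 0.05 and a wider axis for Krt19. The intervals of Gstp1 cross 0 in all 5, those of Epcam lie on opposite sides of 0 for 100 uM at 24 h and 48 h, and Ggt1 has its largest change with time in DMSO.

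Krt19 encodes a keratin of bile duct cells, and its probe set 1388433_at lay below the array median on 25 of the 30 arrays. At 24 h its DMSO wells read 290, 319, 218, 218 and 222. At 3 uM the readings were 102, 233, 234, 323 and 459. At 100 uM the readings were 140, 203, 109, 29.6 and 246. The groups overlapped, and 1 of these 15 wells, the last 3 uM well, exceeded its array's median.

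At 48 h the DMSO wells read 530, 384, 481, 315 and 467. The 3 uM wells read 397, 165, 294, 236 and 323. The 100 uM wells read 239, 201, 70.2, 169 and 144. All 100 uM wells lay below all DMSO wells, as was so for 12.1% of all genes in that direction. Of the 5 arrays that carried Krt19 past the filter, 3 were DMSO at 48 h and 0 were 100 uM, so passing the filter was not independent of this difference. The log2 fold change at 48 h was -1.49 ± 0.44 (adjusted p = 0.00771). At 24 h it was -1.09 ± 0.44 (adjusted p = 0.0516). It was -0.59 (adjusted p = 0.258) without replicate 4 of 100 uM, the well at 29.6, and was called without replicate 2 or replicate 5 of 100 uM (-1.35, adjusted p = 0.0188, without replicate 5). With replicates 4 and 5 alone at 3 uM and 24 h, Krt19 was at 0.63 (adjusted p = 0.783) for 3 uM against DMSO and -1.71 (adjusted p = 0.0213) for 100 uM against 3 uM. The size of either fold is uncertain because the lower group lies within the dim range, and the spread of Krt19 within groups was larger than in 97.2% of genes.

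Of 11 listed markers of bile duct cells, Epcam and Krt19 among them, 8 had a probe set and 5 passed the filter. At 100 uM 1 rose and 1 fell at 24 h, and 0 rose and 4 fell at 48 h, with a median of -0.78 against 0.049 over all genes. These counts include Epcam and Krt19. Of the 3 others, 1 fell at 24 h and 2 fell at 48 h, and 0 rose. Over all genes 14.5% were called lower at 48 h. Krt19 passed the filter mainly through its DMSO wells at 48 h, so its fall there was not independent of the filter. Sctr, 1 of the 3 others, exceeded the array median on 8 arrays, and the groups of these arrays are not given here. The count and the median at 48 h are therefore not read as a difference from all genes. Cldn7, a tight junction protein that binds Epcam, averaged 946 ± 63.1 at 100 uM and 1630 ± 209 in DMSO at 48 h (-0.78 ± 0.16, adjusted p = 0.000166). At 24 h it fell by 0.55, and in DMSO it rose by 0.59 at 48 h against 24 h (adjusted p = 0.0230). Sctr, the secretin receptor of duct cells, was dim and fell at 48 h (-1.49 ± 0.42, adjusted p = 0.00579), and Aqp1, a water channel, was at 0.23 ± 0.17 at 48 h and was not called. Krt7, a duct keratin, was between 8.43 and 36.4 on all arrays, and Cftr and Cldn4 also lay below every array median.

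The summed signal of the 6 duct markers outside the 9 genes lay between 2422 and 2661 at 100 uM and between 2783 and 3664 in DMSO at 48 h. The sum averaged 2512 and 3170 there, and Cldn7, 1 of the 6, averaged 946 and 1630. The fall of the sum was thus no larger than that of Cldn7 alone. At 24 h the sum lay between 2043 and 2772 at 100 uM and between 2225 and 2928 in DMSO. The summed signal of 10 stellate cell and fibroblast markers, of which Vim (9990 on average) made up most, lay between 11393 and 12951 at 100 uM and between 15071 and 16471 in DMSO at 48 h. At 24 h it lay between 9135 and 12706 at 100 uM and between 12914 and 14954 in DMSO. The change of Vim alone is not given here, so the lower sum at 100 uM is not read as a change of the other markers. For 9 Kupffer cell and leukocyte markers, Lyz2 (7343 on average) made up most of the sum. Their ranges were 9829 to 11464 at 100 uM and 9456 to 10229 in DMSO at 48 h, and 10203 to 11054.5 at 100 uM and 9330 to 11207 in DMSO at 24 h. For 6 endothelial markers the ranges were 1214 to 1547 at 100 uM and 989 to 1227 in DMSO at 48 h, and 1006 to 1706 at 100 uM and 909 to 1522 in DMSO at 24 h. At 100 uM 0 stellate cell markers rose and 1 fell at 24 h, and 1 rose and 1 fell at 48 h, of 6 tested. Of 6 Kupffer cell and leukocyte markers, 1 rose and 1 fell at 24 h and 2 rose and 1 fell at 48 h. Their median log2 fold change at 48 h was -0.029 against 0.049 over all genes, so they did not move together. Cd68, a lysosomal protein of macrophages, was among those that rose at 48 h (1.65 ± 0.12), and the 1 that fell is given by count alone. The single tested endothelial marker, Kdr, was not called, and of 7 hepatocyte markers 0 rose and 3 fell at 24 h, and 0 rose and 2 fell at 48 h. Defining markers of these cells lay on both sides of the array medians. Of Kupffer cells and leukocytes, Adgre1 (mean 32.3), Cd163 (169) and Ptprc (178) were low, while Clec4f (458) and Lyz2 (7343) passed the filter. Of stellate cells, Lrat (45.1) and Pdgfra (32.1) were low, while Des (618) and Acta2 (1028) passed. Of endothelium, Vwf (67.4) and Pecam1 (153) were low, while Kdr (573) passed. The part of such cells in the Epcam, Krt19 and Ggt1 values was not tested.

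**Figure D4:**
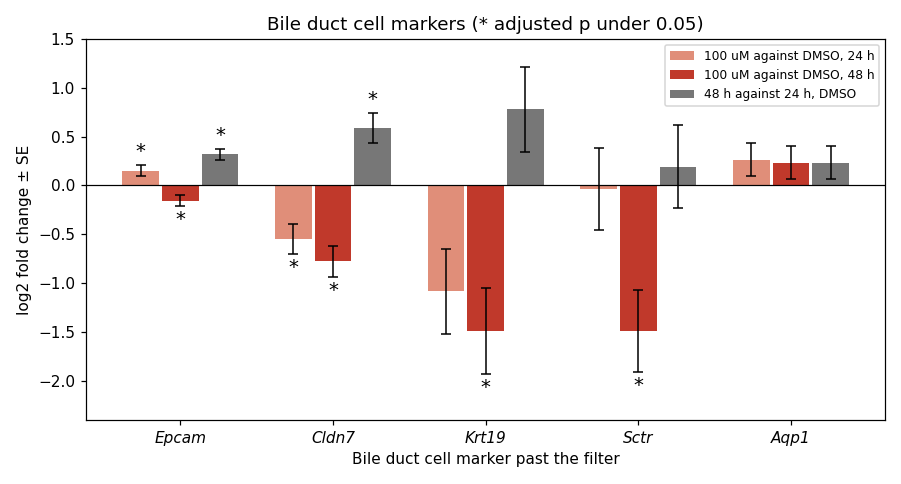
Bars are log2 fold changes with their SE for the 5 bile duct cell markers past the filter, for 100 uM against DMSO at 24 h and 48 h and for 48 h against 24 h in DMSO, with an asterisk where the adjusted p is under 0.05. Epcam, Cldn7, Krt19 and Sctr fell at 100 uM and 48 h, and Epcam and Cldn7 rose with time in DMSO.

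Further ductular and progenitor markers had mixed directions. Of 8 tested, 1 rose and 2 fell at 100 uM and 24 h, and 2 rose and 2 fell at 48 h. Tnfrsf12a, the receptor of the oval cell mitogen TWEAK, rose at both times (0.64 ± 0.060 and 0.50 ± 0.060), and Onecut1, a factor of hepatoblasts, rose at 48 h (0.63 ± 0.16). Cdh1, E-cadherin, averaged 6949 at 100 uM and 10627 in DMSO at 48 h, and fell by 0.61. Sox4, a progenitor factor related to Sox9, fell by 1.08 at 48 h and rose by 0.92 in DMSO at 48 h against 24 h. The list also held Krt8 and Krt18, the keratins of hepatocytes, and the counts include them. Both were bright and not called, at -0.095 and -0.078 at 48 h.

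Cd24, a surface glycoprotein of progenitor cells, was near background in all wells. Its probe set 1369953_a_at lay between 16.6 and 214 at 24 h over the 3 dose groups, and between 115 and 284 at 48 h. In DMSO the 48 h wells read 115, 144, 284, 226 and 162, all above the 24 h wells at 103, 31.0, 90.9, 81.7 and 60.8. Cd24 was not among the tested genes, of which 3.38% were higher without overlap in that comparison. In a fit without the filter the change was 1.38 ± 0.56 (adjusted p = 0.247), and at 100 uM it was -0.10 ± 0.56 at 24 h and 0.065 ± 0.56 at 48 h.

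Spp1, which encodes osteopontin, a secreted ligand of integrins and Cd44, was near background too. Its probe set 1367581_a_at lay between 20.3 and 394 over the 30 arrays, with a median of 59.0. The highest value was replicate 3 of 100 uM at 48 h, and the other 4 wells of that group lay between 27.5 and 128. Without the filter the change at 100 uM was -0.44 ± 0.67 at 24 h and 0.16 ± 0.67 at 48 h, with adjusted p of 0.719 and 0.911. Of 8 tested genes for its receptors and partners, 1 rose and 3 fell at 100 uM and 24 h, and 0 rose and 1 fell at 48 h. Itgav, the integrin alpha V chain that binds osteopontin, averaged 9302 at 100 uM and 14655 in DMSO at 48 h (-0.67 ± 0.16, adjusted p = 0.00128). Itgb1, a partner chain, rose at 24 h (0.22 ± 0.074).

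Gpc3 encodes glypican 3, a heparan sulfate proteoglycan of fetal liver and liver tumours. Its 2 probe sets lay below the array median on all 30 arrays, between 10.4 and 268 for 1396620_at and between 19.9 and 325 for 1368395_at. They disagreed: DMSO at 48 h had the lowest group mean on the first (66.8 ± 55.8) and the highest on the second (151 ± 115). With every probe set fitted and no filter, their changes at 100 uM and 48 h were 1.35 ± 0.64 and -1.51 ± 0.56, with adjusted p of 0.181 and 0.0698. No direction can be read for this gene.

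Of 11 tested genes on a list of Wnt signalling, glypican and syndecan genes, 0 rose and 5 fell at 100 uM and 24 h, and 1 rose and 3 fell at 48 h. The list also held Fgf21, which is of none of these groups, and the counts include it. Ctnnb1, beta-catenin, fell by 0.20 at both times, and Sdc4, syndecan 4, by 0.23 at 24 h. Fgf21, a liver hormone, fell by 0.73 at 48 h, and Lgr4, an R-spondin receptor, rose (0.42 ± 0.16). Gpc4, another glypican, averaged 3511 in DMSO at 48 h and 6827 at 24 h, a log2 fold change of -0.96 ± 0.073.

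Of 11 tested Notch and YAP pathway genes, 0 rose and 3 fell at 24 h, and 1 rose and 1 fell at 48 h, with medians of -0.024 and -0.080. Wwtr1, the YAP partner TAZ, rose at 48 h (0.47 ± 0.11) and Tead1, the DNA-binding partner of both, fell by 0.28 at 24 h and by 0.24 at 48 h. Hes1, a Notch target, was at -0.024 and -0.080 and was not called. Of 6 tested genes among other fetal liver genes, 1 rose and 1 fell at both times. Igf2bp3, an RNA-binding protein of fetal tissue, averaged 1126 at 100 uM and 1737 in DMSO at 48 h (-0.64 ± 0.12, adjusted p = 0.000101), and Aldoa, the aldolase of fetal liver, rose at 48 h (0.21 ± 0.047). Igf2 and Dlk1, a fetal growth factor and a hepatoblast surface protein, lay below the filter.

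Over the 102 tested genes of all 14 lists outside the 9 markers, 11 rose and 30 fell at 100 uM and 24 h, and 14 rose and 28 fell at 48 h. The shares called, 40.2% and 41.2%, stood beside the 35.7% and 33.4% over all genes. At 3 uM 4 rose and 2 fell at 24 h, a share of 5.88% beside 4.22% over all genes. With replicates 4 and 5 alone 0 of the 102 were called, where 0.0391% of all genes were. In that fit 13 of the 102 had an unadjusted p under 0.05 in limma. The share of all genes at that threshold is not given here, so nothing is read from this count. At 3 uM and 48 h 0 were called.

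The genes whose log2 signals followed Epcam most closely over the 30 arrays were Dynll2, Cd9 and Max, with Pearson r of 0.888, 0.849 and 0.838. For Ggt1 they were Slc25a4, Acta1 and Cd36 (0.873, 0.854 and 0.852). For Afp they were Nat1, Cryz and Pde3b (0.776, 0.755 and 0.755), for Gstp1 Cox6c, Ifi27l2b and Slc25a5 (0.823, 0.818 and 0.803), and for Krt19 Gal3st1, Cpn1 and C10h17orf58 (0.788, 0.778 and 0.762). These values are descriptions of likeness, and the arrays share dose, time and the arrays that stand apart. Cd36, a fatty acid uptake receptor, averaged 2956 ± 398 at 100 uM and 5469 ± 497 in DMSO at 48 h, and 1797 ± 325 at 100 uM and 3332 ± 1006 in DMSO at 24 h.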

How the data were processed

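The deposited values are intensity: per the submitters' processing notes the authors used MAS5, a summary of each probe set in linear units, and its version and detection calls are not given in the sources used here. The 2% trimmed mean lay between 1500.5 and 1500.7 on every array, so the arrays had been scaled. Genes came from the platform's annotation: of the 31099 probe sets, 57 were controls, 20826 carried a single symbol, 9780 carried none and 436 carried several. Values were log2 transformed without a pseudocount. Probe sets above their own array's median on at least 5 arrays were kept, and the 1 with the highest mean log2 signal stood for each gene, which left 10222 genes. The 6 group means were estimated together from the 30 arrays, leaving 24 residual degrees of freedom, in limma 3.58.1 in R 4.3.3, with eBayes and a trend. Tests were two-sided, over 9 comparisons, adjusted by Benjamini-Hochberg over all genes. On simulated data for 100 uM against DMSO at 48 h (10222 genes) 69% of 1.5-fold and 91% of 2-fold changes were recovered, with 8 false calls. The simulation shuffled residuals over the arrays and changed 100 genes at each fold. In the real comparison 33.4% of genes were called, so the recovery there can differ.

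The markers, the 14 lists and the alternatives were chosen with earlier results of these data known. The rule names all 9 markers, up to 4 called genes per list in order of adjusted p (where 0 were called, the 2 brightest), and the 3 genes most like each tested marker; some genes of a list are given by count alone. Other genes of a list named with a level were chosen after their values were seen. Alternatives were quantile normalization, median centring, other filters and thresholds, a fit without a variance trend, runs of array numbers as a block, the beta-actin ratio as a covariate, and leaving out each array. The number of arrays limits the precision. Figures used matplotlib 3.10.9 in Python 3.11.15.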

Additional observations from a re-analysis of the deposited data

Results flagged for a closer look

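The effect of 100 uM on Epcam differed between 48 h and 24 h, with a difference of -0.31 on the log2 scale (adjusted p = 0.0420). Of the other values, 3 stood far from the rest of their group, and all 3 belong to probe sets near background. Gpc3 on probe set 1368395_at was 22.3 in replicate 5 of 100 uM at 48 h, where the other wells lay between 44.5 and 50.2. On the same probe set it was 253 in replicate 2 of DMSO at 24 h, where the others lay between 19.9 and 60.8. Spp1 was 394 in replicate 3 of 100 uM at 48 h, where the others lay between 27.5 and 128. Among 54 groups examined, chance alone flags about 1 in 20.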

How the results depend on the processing

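No result of a marker changed sign in a call under any alternative run. Counts of the 5 tested markers called moved as follows. At 100 uM against DMSO and 24 h the count was 1, and 2 with quantile normalization or without a variance trend, where Krt19 was added. The count was 0 with arrays centred on their medians, at an adjusted p under 0.01 or at 1.5-fold, and between 0 and 1 on leaving out 1 array. At 48 h the count was 3. Epcam was lost from it at an adjusted p under 0.01 and under some settings, being called under 8 of 10. The count was 1 when 1.5-fold was also required, and 2 to 3 on leaving out 1 array. At 3 uM and 24 h it was 0, and 1 (Epcam) with quantile normalization and without replicate 4 or 5 of that group (range 0 to 1). For 100 uM against 3 uM at 24 h it was 1, 2 with quantile normalization or the beta-actin covariate, 3 with replicates 4 and 5 alone and 0 at 1.5-fold (1 to 2 on leaving out 1 array). At 48 h it was 2, and 1 with median centring or at 0.01, 0 at 1.5-fold, and 1 to 2 on leaving out 1 array. For 48 h against 24 h in DMSO it was 2, and 1 at 1.5-fold. For the change of the 100 uM effect it was 1, and 0 with median centring, every probe set past the filter, no trend, runs of 6 array numbers as a block, the covariate or either stricter threshold (0 to 1 on leaving out 1 array).

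The Epcam call at 100 uM and 24 h was lost without replicate 1, 4 or 5 of DMSO or 2, 3 or 5 of 100 uM (adjusted p up to 0.0942), and that at 48 h without replicate 1, 2, 3 or 5 of DMSO or 3 or 4 of 100 uM (up to 0.0883). The call of its difference between times was kept without replicate 3 of DMSO at 24 h or 4 of DMSO at 48 h, and lost without each of the other 18 arrays. With the beta-actin covariate the count at 100 uM and 24 h stayed at 1, with Afp called and Epcam not. With replicates 4 and 5 alone at 3 uM and 24 h, the added calls for 100 uM against 3 uM were Afp and Krt19, both lower. The cause was not tested. Over all genes, 431 were called at 3 uM and 24 h, against 252 with median centring, 0 within the 2 groups alone, 1 with the covariate, 4 with replicates 4 and 5 alone, and 42 to 1650 on leaving out 1 array. At 3 uM and 48 h 4 were called, against 2 with median centring and 2 to 4 on leaving out 1 array. For the change of the 3 uM effect 0 were called, against 44 and 153 without replicate 4 or 5 of 3 uM at 24 h. For 100 uM against 3 uM at 24 h the covariate gave 2440 against 3970 of the 10222 genes. A fit of every probe set past the filter called 6060 of 17555 probe sets, which is a count of another unit. With median centring 244 were called against 458 for time in DMSO, and 58 against 169 for the change of the 100 uM effect. With median centring 47.3% of calls at 100 uM and 24 h were upward against 55.6%, 44.7% against 56.6% at 48 h, 90.9% against 71.0% at 3 uM and 24 h, and 34.0% against 50.9% for 100 uM against 3 uM at 24 h. The labels give the wells no replicate number that links groups, but consecutive array numbers in the titles form runs of 6 with 1 array of each group. With these runs as a block the counts of markers called were the same in 8 of 9 comparisons, the exception being the change of the 100 uM effect.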
